A study of Mus musculus with 15 samples.

Results

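Noradrenergic neurons were followed through 4 genes, Th, Dbh, Slc6a2 and Phox2a, which were taken by symbol from the 57180 Ensembl gene identifiers of the deposited tables and described in all 15 brainstem libraries. The neonatal experiment held 3 WT (AMPK+/+) libraries and 3 libraries labelled AMPK-/-, which the study describes as AMPKα2-/- mice and their WT littermates. The prenatal experiment held 3 WT (LMX1B+/+), 3 Lmx1b+/- and 3 Lmx1b-/- libraries, which the study describes as brainstem from embryos. All mice were C57BL/6 and no agent is named for the sequenced samples; the labels give neither exact age, sex nor whether tissue of several animals was pooled, so p-values measure only the spread between these libraries. Lmx1b is a LIM homeodomain transcription factor known for its need in serotonergic neurons, and AMPK is a kinase that responds to cellular energy, whose catalytic subunit α2 is encoded by Prkaa2. No Cre driver is named for either allele in the sources used here, and the gene of the other catalytic subunit, α1, is left in AMPKα2-/- mice.

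In the brainstem, noradrenaline is made by the locus coeruleus in the dorsal pons and by smaller groups of the medulla and ventrolateral pons, several of which take part in the control of breathing. Th, tyrosine hydroxylase, converts tyrosine to L-DOPA and is the rate-limiting step of catecholamine synthesis. Ddc makes dopamine from it, Slc18a2 (VMAT2) loads dopamine into vesicles, and Dbh, dopamine β-hydroxylase, turns it into noradrenaline there. Slc6a2 is the noradrenaline transporter that takes the released transmitter back up, and Phox2a is a homeodomain factor that specifies noradrenergic neurons. Th, Ddc and Slc18a2 are also used by dopaminergic neurons, and Ddc and Slc18a2 by serotonergic ones, whereas Dbh is used by noradrenergic and adrenergic cells.

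The stretches just upstream of the start sites of the synthesis genes Th and Dbh and of the factor Phox2a are shown because Phox2a is a homeodomain protein, a class that recognises a TAAT core. RefSeq promoter entries were matched for 3 of the 4 genes, and the 250 bases before the start of each, read on the gene's strand in GRCm38.p6, are given. Capitals mark TAAT or ATTA (the homeodomain core on either strand) and TGACG or CGTCA (the core of the cAMP response element on either strand). The Th stretch is chr7:142899996-142900245 on the minus strand, the Dbh stretch chr2:27165257-27165506 on the plus strand and the Phox2a stretch chr7:101818063-101818312 on the plus strand.
Th: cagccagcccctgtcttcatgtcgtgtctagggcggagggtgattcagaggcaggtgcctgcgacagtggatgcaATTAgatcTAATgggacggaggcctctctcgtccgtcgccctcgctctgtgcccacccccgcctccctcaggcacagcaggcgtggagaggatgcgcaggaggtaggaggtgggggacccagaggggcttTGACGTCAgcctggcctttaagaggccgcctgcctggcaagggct
Dbh: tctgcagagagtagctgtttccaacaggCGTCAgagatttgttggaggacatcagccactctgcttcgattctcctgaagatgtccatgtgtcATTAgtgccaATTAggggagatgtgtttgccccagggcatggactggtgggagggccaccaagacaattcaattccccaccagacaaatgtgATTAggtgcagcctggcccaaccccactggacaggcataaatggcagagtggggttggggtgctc
Phox2a: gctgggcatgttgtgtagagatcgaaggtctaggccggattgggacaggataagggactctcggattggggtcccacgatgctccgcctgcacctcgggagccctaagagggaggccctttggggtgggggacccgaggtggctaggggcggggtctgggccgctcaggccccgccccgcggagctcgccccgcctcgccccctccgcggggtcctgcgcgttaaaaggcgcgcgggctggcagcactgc
The Th stretch held 2 homeodomain cores, and TGACG and CGTCA overlapping as TGACGTCA, the first base of which lay 45 bases before the start. The Dbh stretch held 3 homeodomain cores and 1 CGTCA, and the Phox2a stretch held neither. The homeodomain core occurred in 54.9% and TGACG or CGTCA in 17.8% of 32851 promoters of the same length. TATAAA, searched in the same way, was in none of the 3 stretches and in 7.59% of all promoters. These matches describe letters only.

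Levels are given as CPM, a count relative to its library's total with TMM correction for differences in composition. The total counts were 14975095 to 17384171 in 4 neonatal libraries, but 291212 in WT 2 and 335986 in AMPKα2-/- 3, and 28833130 to 37441679 in the 9 prenatal libraries. A count of 0, taken to allow up to 3 counts, permitted 9.96 CPM in WT 2 and 9.05 CPM in AMPKα2-/- 3, and 0.174 to 0.198 CPM in the other neonatal and 0.0675 to 0.108 CPM in the prenatal libraries. Lmx1b lay at 22.5, 16.0 and 9.72 CPM in prenatal WT 1 to 3, at 30.5, 11.9 and 14.2 CPM in Lmx1b+/- and at 1.45, 1.13 and 0.848 CPM in Lmx1b-/-. Lmx1b RNA thus followed the label in the Lmx1b-/- libraries (log2 fold change -3.82 ± 0.41, SE, edgeR adjusted p = 0.00287) and was not lower in the libraries labelled Lmx1b+/- (0.23 ± 0.33, adjusted p = 0.618). Prkaa2 lay at 21.9, 26.6 and 29.6 CPM in neonatal WT, against 25.3, 22.2 and 12.1 CPM in the libraries labelled AMPKα2-/-, with no difference past the threshold (-0.20 ± 0.23, adjusted p = 0.659). The part of the Prkaa2 gene that was removed is not stated here, so directions are those between labelled libraries. Prenatal WT 3 stood apart from the other 8 libraries of its table, with 4.56% of its counts on the most abundant gene against 13.7% to 22.7%.

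In neonatal brainstem all 4 genes were low and none passed the test between genotypes. Th, the first enzyme of the pathway, was read at 17.3, 16.6 and 4.36 CPM in WT 1 to 3 and at 4.55, 11.1 and 3.02 CPM in AMPKα2-/- 1 to 3. WT 1 and WT 2 lay above all 3 of AMPKα2-/-, while WT 3 fell among them, so the groups overlapped. The shallow libraries rested on 5 counts in WT 2 and 1 count in AMPKα2-/- 3, with exact Poisson 95% intervals of 5.39 to 38.7 and 0.0764 to 16.8 CPM that cover counting error only.

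Dbh, which makes noradrenaline, was read at 5.91, 0 and 3.31 CPM in WT, against 4.55, 4.85 and 15.1 CPM in AMPKα2-/-. The highest and the lowest of these values were both from shallow libraries, with 5 counts in AMPKα2-/- 3 and 0 in WT 2. In the 4 deeper libraries Dbh kept to between 3.31 and 5.91 CPM. Slc6a2, the reuptake transporter, was read at 2.17, 9.96 and 2.03 CPM in WT, against 0.593, 1.62 and 6.03 CPM in AMPKα2-/-. Without the shallow libraries, Slc6a2 rested on 33 and 35 counts in WT and on 9 and 25 counts in AMPKα2-/-, which are too few libraries to compare the genotypes. Phox2a was at 0.985, 0 and 0.523 CPM in WT, against 0.330, 0.711 and 0 CPM in AMPKα2-/-, with at most 15 counts in a library, and did not pass the filter on low counts.

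The log2 fold change of AMPKα2-/- against WT was -0.57 ± 0.44 (SE) for Th (edgeR quasi-likelihood test, Benjamini-Hochberg adjusted p = 0.450), 0.27 ± 0.43 for Dbh (adjusted p = 0.744) and -0.95 ± 0.63 for Slc6a2 (adjusted p = 0.371). Of the 3 genes tested, 0 were called at an adjusted p under 0.05, 0 had an unadjusted p under 0.05 (24.6% of all genes), and DESeq2 gave the members no adjusted p. Of all 17397 genes tested, 8.94% were called, 3.77% as higher and 5.17% as lower. Th turned to 0.48 without WT 1 and was called without AMPKα2-/- 2 (-1.34, adjusted p = 0.0374), and Dbh was at -0.0055 without WT 3. WT 3 also carried skeletal muscle RNA, the 10 listed muscle genes summing to 887 CPM there and to 6.03 to 11.8 CPM in the other 5 libraries, and the part of that in these values was not tested. Of the isthmus and rhombomere 1, the region that gives rise to the locus coeruleus, 6 genes were listed. They summed to 19.4 to 23.2 CPM in WT and to 0 to 11.8 CPM in AMPKα2-/-. The 0 was that of the shallow AMPKα2-/- 3, without a count of any of the 6, and the shallow WT 2 held at most 3 counts of each. By edgeR 1 of the 4 tested was called, Pax2 (-1.81 ± 0.39, adjusted p = 0.00582). The part of these genes in the values was not tested either.

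**Figure D1:**
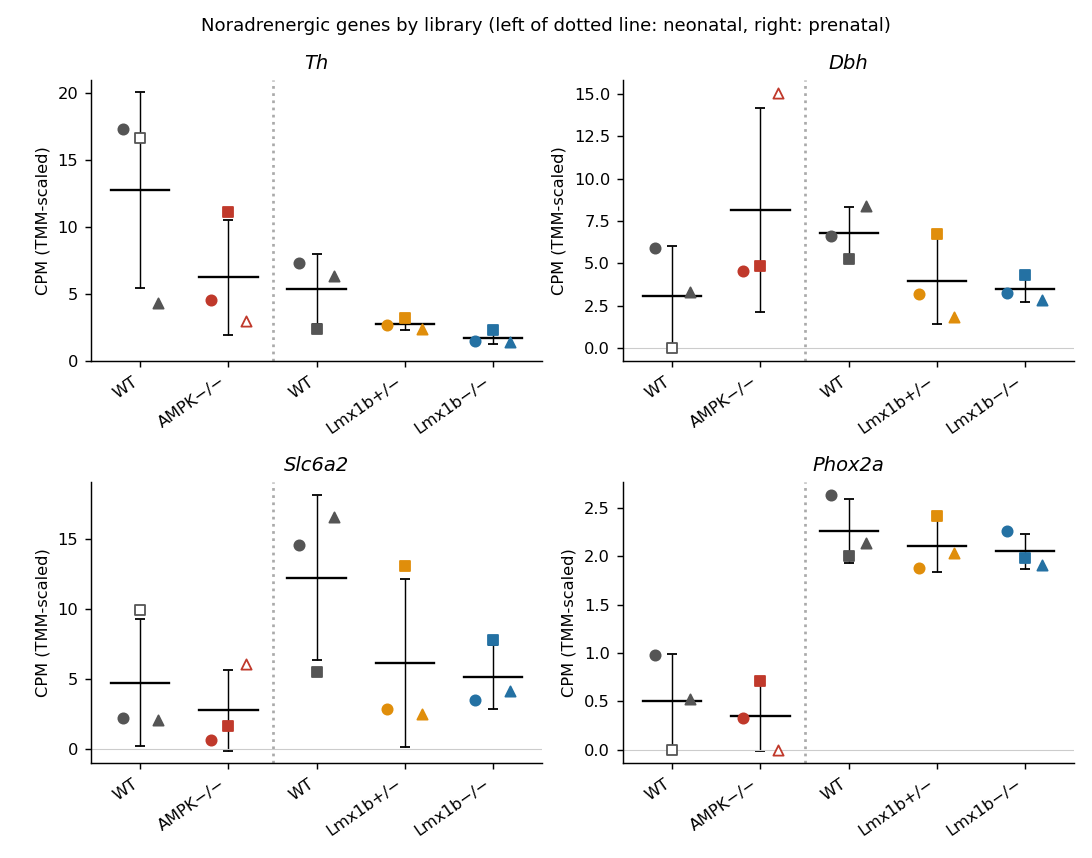
CPM of Th, Dbh, Slc6a2 and Phox2a in each library, with genotype on the x axis, where circles, squares and triangles are replicates 1, 2 and 3, open symbols are the 2 shallow libraries, and the bar and whiskers are the mean ± SD (n = 3). In prenatal brainstem the Lmx1b-/- values of Th and Dbh lie below every WT value, while Phox2a stays between 1.88 and 2.64 CPM.

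In prenatal brainstem Th, Dbh and Slc6a2 had lower means in both Lmx1b genotypes than in WT, and Phox2a had about the same level throughout. Th was read at 7.31, 2.42 and 6.35 CPM in WT 1 to 3, at 2.71, 3.22 and 2.37 CPM in Lmx1b+/- and at 1.52, 2.34 and 1.40 CPM in Lmx1b-/-. WT 1 and WT 3 stood above all other libraries, WT 2 lay within the Lmx1b+/- range, and the 3 Lmx1b-/- libraries were the lowest of the 9. The means ± SD were 5.36 ± 2.59, 2.77 ± 0.43 and 1.75 ± 0.51 CPM (n = 3 each).

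Dbh was read at 6.64, 5.26 and 8.42 CPM in WT, at 3.22, 6.77 and 1.86 CPM in Lmx1b+/- and at 3.29, 4.30 and 2.86 CPM in Lmx1b-/-. All Lmx1b-/- libraries lay below all WT libraries, and Lmx1b+/- spanned both, its second library being as high as WT. Slc6a2 was read at 14.6, 5.50 and 16.6 CPM in WT, at 2.82, 13.1 and 2.52 CPM in Lmx1b+/- and at 3.48, 7.77 and 4.13 CPM in Lmx1b-/-. Here WT 2 lay below the second library of each mutant genotype, so neither genotype was separated from WT. Phox2a was read at 2.64, 2.01 and 2.14 CPM in WT, at 1.88, 2.42 and 2.04 CPM in Lmx1b+/- and at 2.26, 1.99 and 1.91 CPM in Lmx1b-/-. Its 3 groups overlapped, and in the GENCODE annotation the gene overlaps Inppl1 on the opposite strand, whose reads could be told apart only if strand was used in counting, which is not stated. In bulk tissue, fewer cells of a type and less RNA per cell cannot be told apart.

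Between Lmx1b+/- and WT, Th was lower (log2 fold change -0.96 ± 0.33, SE, edgeR adjusted p = 0.0387), and it was the 1 gene of the 4 past the threshold. Of all 21729 genes tested, 36.7% were called in this comparison, 19.4% as higher and 17.3% as lower, so that 1 of 4 is not above the background. Dbh (-0.78 ± 0.35, adjusted p = 0.0995), Slc6a2 (-0.997 ± 0.55, adjusted p = 0.177) and Phox2a (-0.09 ± 0.20, adjusted p = 0.751) did not pass, and 2 of the 4, Th and Dbh, had an unadjusted p under 0.05, against 46.1% of all genes. The call of Th was lost without WT 1, WT 3, Lmx1b+/- 1 or Lmx1b+/- 3, with adjusted p from 0.0690 to 0.169. Without Lmx1b+/- 2, Dbh (-1.41, adjusted p = 0.00226) and Slc6a2 (-2.18, adjusted p = 0.00269) were called as well.

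Between Lmx1b-/- and WT, Th had the largest difference of the 4 genes (-1.61 ± 0.34, edgeR adjusted p = 0.332), followed by Slc6a2 (-1.26 ± 0.56, adjusted p = 0.604), Dbh (-0.96 ± 0.35, adjusted p = 0.544) and Phox2a (-0.14 ± 0.20, adjusted p = 0.871). Of the 4 genes, 0 were called, against 0.0184% of all genes, which is 4 genes, all lower. At an unadjusted p under 0.05 stood 3 of the 4 genes and 8.09% of all genes. DESeq2 called 1 of the 4, Th (-1.63, adjusted p = 0.00160), and 34 of all 21727 genes. Th and Dbh were the 2 genes whose Lmx1b-/- libraries all lay below WT, as did those of 6.09% of all genes. The two-sided exact permutation test of the 3 against 3 CPM values gave 0.1 for both, the smallest p this design allows. Without WT 2, edgeR called Th (-1.96, adjusted p = 0.00806), and without WT 3 it was at -1.499 (adjusted p = 0.467).

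The 2 Lmx1b genotypes were compared directly in the same fit. Th was at -0.66 ± 0.35 (log2, Lmx1b-/- against Lmx1b+/-, edgeR adjusted p = 0.197), Dbh at -0.18 ± 0.36 (adjusted p = 0.760), Slc6a2 at -0.26 ± 0.56 (adjusted p = 0.776) and Phox2a at -0.05 ± 0.20 (adjusted p = 0.898). None of the 4 passed by edgeR, which called 25.5% of all genes, and 0 had an unadjusted p under 0.05 (36.8% of all genes). By DESeq2 0 of the 4 were called, against 5917 of all 21727 genes. Th of the Lmx1b-/- libraries lay below every Lmx1b+/- value, as did 21.4% of all genes. Without Lmx1b+/- 2, Dbh was at 0.42 and Slc6a2 at 0.89, both still short of the threshold.

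**Figure D2:**
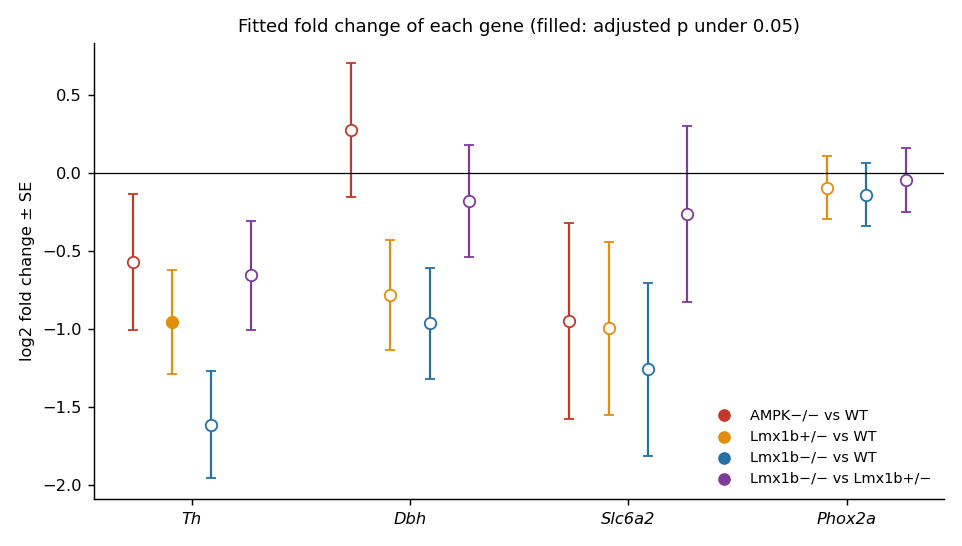
Log2 fold change (y axis, ± SE) of each gene in the 4 comparisons of genotypes, which are told apart by colour. Th in Lmx1b+/- against WT, at -0.96, is the only filled point, and Phox2a in the neonatal comparison was not tested.

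Some genes of midbrain and isthmus were high in the same prenatal libraries as Th, and others were not. En1, a homeodomain factor of midbrain and anterior hindbrain, was read at 21.9, 6.71 and 20.2 CPM in WT, at 10.1, 12.3 and 5.40 CPM in Lmx1b+/- and at 3.97 to 4.30 CPM in Lmx1b-/-. The libraries high in Th, WT 1 and WT 3, were the ones high in En1. En2, its paralog, was at 39.9, 12.1 and 31.5 CPM in WT, against 2.48 to 4.08 CPM in Lmx1b-/-, and Pax5, an isthmus factor, at 33.5, 5.85 and 38.4 CPM in WT, against 4.22 to 5.80 CPM in Lmx1b-/-. The dopamine transporter Slc6a3, a defining gene of midbrain dopaminergic neurons that also use Th, followed the same pattern with 6.04, 0.934 and 5.29 CPM in WT and 0.240 to 0.967 CPM in all 6 mutant libraries. Pitx3, another defining gene of those neurons, was at 0.738, 0.0346 and 0.518 CPM in WT, against 0.0265 to 0.194 CPM in the mutants. Its lowest values lie under the level of 3 counts, 0.104 CPM in WT 2 and 0.0795 CPM in Lmx1b-/- 3. Nr4a2, Lmx1a, Foxa1, Foxa2, Aldh1a1 and Otx2, also listed for midbrain dopaminergic neurons, are not given library by library here.

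The 10 listed midbrain dopaminergic genes summed to 134, 57.4 and 127 CPM in WT 1 to 3, to 46.0 to 89.6 CPM in Lmx1b+/- and to 52.5 to 65.0 CPM in Lmx1b-/-. The sum of WT 2 thus lay within the range of each mutant genotype. All 10 had at least 1 count in all 9 libraries. Of the 9 tested, 2 were called lower in Lmx1b+/-, where 17.3% of all genes were. These were Slc6a3 at -2.82 and Aldh1a1, a retinaldehyde dehydrogenase of these neurons, at -1.86. By edgeR 0 were called in Lmx1b-/- against WT, where only 0.0184% of all genes were. The 6 genes of isthmus and rhombomere 1 summed to 70.8 to 86.3 CPM in WT, 43.9 to 57.7 CPM in Lmx1b+/- and 45.7 to 59.3 CPM in Lmx1b-/-. The part of these genes in the values of Th was not tested. Within that list Pax5 alone had WT 1 and WT 3 far above WT 2. Gbx2, a factor of rhombomere 1, was at 8.08, 13.6 and 8.46 CPM in WT and 9.77 to 14.0 CPM in Lmx1b-/-, and Pax2 at 32.2, 39.5 and 22.8 CPM and 22.1 to 31.0 CPM, both highest among WT in WT 2, the lowest WT library in Th. Hand1 and Hand2, factors of sympathetic neurons outside the brain, had 0 counts in all 15 libraries and at most 2 counts in any library, respectively. Other genes listed for sympathoadrenal cells, which central neurons also use, were well expressed in every library, among them Chga and Chgb, secretory granule proteins (80.1 to 253 and 81.3 to 391 CPM), and Ret, a growth factor receptor (32.8 to 69.1 CPM).

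Likeness over the 9 prenatal libraries was described by Pearson's r of log2 CPM among 17121 genes with a mean of at least 1 CPM. En1 had the pattern most like that of Th (r = 0.948), before Jmjd8 (0.927) and Pxylp1 (0.925). Dbh was followed by Arih2 (0.957), Casp2 (0.943) and Alkbh1 (0.940), and Slc6a2 by Pola2 (0.932), B230369F24Rik (0.931) and Dbh itself (0.930). Phox2a was followed by Pxdc1 (0.951), Snai1 (0.940) and Hspg2 (0.930). These genes differ in range, En1 spanning 3.97 to 21.9 CPM and Arih2 only 27.0 to 31.6 CPM, and all values share the same 9 libraries.

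Among the 4 genes, Dbh and Slc6a2 varied together most closely. Over the 9 libraries r was 0.930 and Spearman's rho 0.917, with exact permutation p of 0.000408 and 0.00131 and values adjusted over the 6 pairs of 0.00245 and 0.00787. All 9 libraries were permuted regardless of genotype, so these p-values cannot separate a shared genotype difference from a link within genotypes. Without the 2 libraries farthest from the median of Dbh, WT 3 and Lmx1b+/- 3, r was 0.905, and after the genotype means were removed it was 0.895. Th with Dbh (r = 0.726) and Th with Slc6a2 (r = 0.768) were at 0.462 and 0.429 without WT 1 and WT 3, the 2 farthest from the median of Th. Leaving out the farthest libraries narrows the range, which by itself can lower r. The libraries left out also differ between pairs, so these falls cannot be compared. After the genotype means were removed, the 2 pairs with Th were at 0.550 and 0.743 over all 9 libraries. Lmx1b+/- 2 was near WT 1 and WT 3 in Dbh (6.77 CPM) and Slc6a2 (13.1 CPM), and below both in Th (3.22 CPM). WT 2 was below WT 1 and WT 3 in Th, Dbh and Slc6a2 (2.42, 5.26 and 5.50 CPM).

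**Figure D3:**
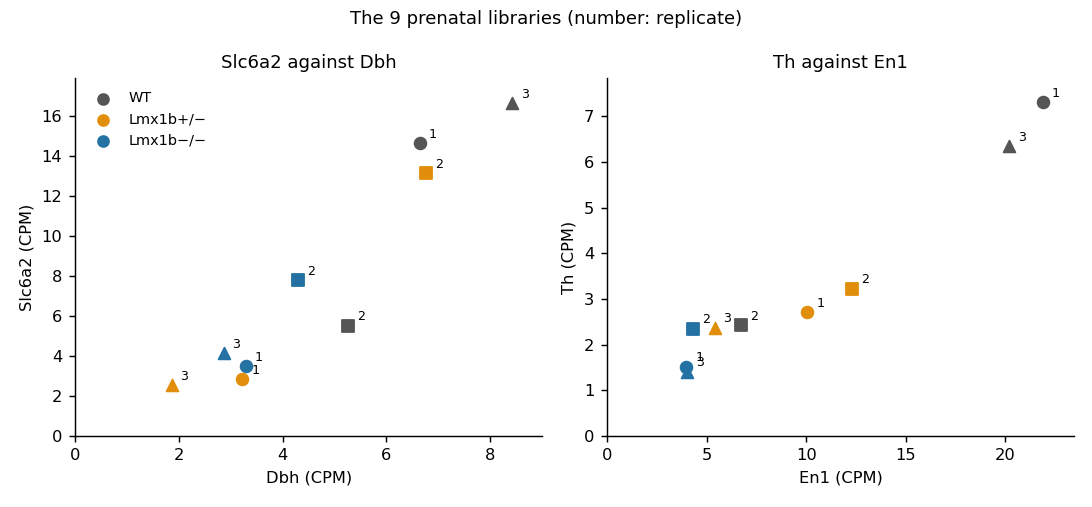
The 9 prenatal libraries by CPM of Dbh (x) and Slc6a2 (y), left, and of En1 (x) and Th (y), right, with colours for the genotype and numbers for the replicate. On the left Lmx1b+/- 2 sits with WT 1 and WT 3, and on the right WT 1 and WT 3 stand apart from the other 7 libraries.

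Levels of different genes were compared on the deposited RPKM, which are divided by gene length. Means ± SD (n = 3) in prenatal WT were 2.74 ± 1.01 for Dbh, 2.45 ± 1.24 for Th, 2.13 ± 1.21 for Slc6a2 and 1.18 ± 0.17 for Phox2a, an order whose neighbours lay within their spread. In Lmx1b-/- the means were 1.35 ± 0.28 for Dbh, 1.05 ± 0.11 for Phox2a, 0.848 ± 0.38 for Slc6a2 and 0.772 ± 0.22 for Th, so Th was second in WT and last in Lmx1b-/-. In neonatal WT, Th was highest at 5.58 ± 3.06, before Dbh at 1.199 ± 1.13, Slc6a2 at 0.782 ± 0.74 and Phox2a at 0.259 ± 0.25.

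Between the 2 experiments, which were scaled separately and in which age and experiment cannot be told apart, mean CPM of WT was 12.7 ± 7.27 neonatal and 5.36 ± 2.59 prenatal for Th, 3.07 ± 2.96 and 6.77 ± 1.58 for Dbh, and 4.72 ± 4.54 and 12.2 ± 5.93 for Slc6a2. These intervals overlap. Phox2a was at 0.503 ± 0.49 CPM neonatal and 2.26 ± 0.33 CPM prenatal, and all 9 prenatal values lay above all 6 neonatal ones, of which 2 were counts of 0 in shallow libraries that allow up to 9.96 CPM. No test was made of these differences.

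Around the 4 genes, 34 further genes of noradrenaline synthesis, storage, breakdown, neuron specification, reception and co-transmission were listed. In neonatal brainstem, 30 were tested, 7 rose and 2 fell in AMPKα2-/- by edgeR, where 3.77% of all genes rose and 5.17% fell. Median log2 fold change was 0.34, against -0.01 for all genes. The 3 synthesis genes that rose were Ddc (1.55 ± 0.37, adjusted p = 0.0118), Gch1, the first enzyme of the tetrahydrobiopterin cofactor (2.20 ± 0.53, adjusted p = 0.0130), and Pcbd1, which regenerates the cofactor (1.51 ± 0.32, adjusted p = 0.00617). Slc18a2 rose by 2.46 ± 0.49 (adjusted p = 0.00371) and Gal, the peptide galanin that locus coeruleus neurons also release, by 2.98 ± 0.30 (adjusted p = 4.19e-06).

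The rise was uneven among libraries. Slc18a2 was read at 12.0, 9.96 and 7.49 CPM in WT, against 103, 12.0 and 33.2 CPM in AMPKα2-/-, and Ddc at 14.0, 6.64 and 7.49 CPM and at 47.5, 13.2 and 33.2 CPM. AMPKα2-/- 1 and 3 were high in both, while AMPKα2-/- 2 was close to WT. The serotonergic genes Tph2, tryptophan hydroxylase, and Slc6a4, the serotonin transporter, did the same, with Tph2 at 133, 3.62 and 69.4 CPM and Slc6a4 at 70.0, 1.49 and 39.2 CPM in AMPKα2-/-, against 0.697 to 6.64 and 0.460 to 16.6 CPM in WT. In the shallow AMPKα2-/- 3 these values rested on 11 counts each of Slc18a2 and Ddc, 23 of Tph2 and 13 of Slc6a4. The highest WT values of Tph2 and Slc6a4 were 2 and 5 counts in the shallow WT 2. The 5 serotonergic genes summed to 16.1 to 46.5 CPM in WT and 30.1 to 237 CPM in AMPKα2-/-, and their part in the rise of Ddc, Slc18a2 and Gch1 was not tested. Without AMPKα2-/- 1 the calls of Slc18a2 (0.73, adjusted p = 0.323), Ddc (0.72, adjusted p = 0.310) and Gch1 (0.93, adjusted p = 0.500) were lost, as was that of Tlx3 (-1.23, adjusted p = 0.317).

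Gal was read at 4.203, 6.64 and 2.61 CPM in WT, against 26.2, 26.5 and 36.2 CPM in AMPKα2-/-. Its groups did not overlap, as those of 13.9% of all genes with the higher values in AMPKα2-/-, and it was the 1 listed gene still called without the 2 shallow libraries (2.96, adjusted p = 0.0271). Of the 7 listed visceral and ocular motor genes, 4 rose (3.77% of all genes), among them Prph, a neuronal intermediate filament (2.02 ± 0.44, adjusted p = 0.00627), the list summing to 85.8 to 180 CPM in WT and 231 to 404 CPM in AMPKα2-/-. Adra2a, the α2A autoreceptor, fell (-0.76 ± 0.22, adjusted p = 0.0339) with 31.9, 19.9 and 34.0 CPM in WT and 17.9, 19.4 and 18.1 CPM in AMPKα2-/-, and Tlx3, a homeodomain factor of noradrenergic and dorsal hindbrain neurons, fell from a mean of 3.35 to 0.518 CPM (-2.13 ± 0.66, adjusted p = 0.0459).

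**Figure D4:**
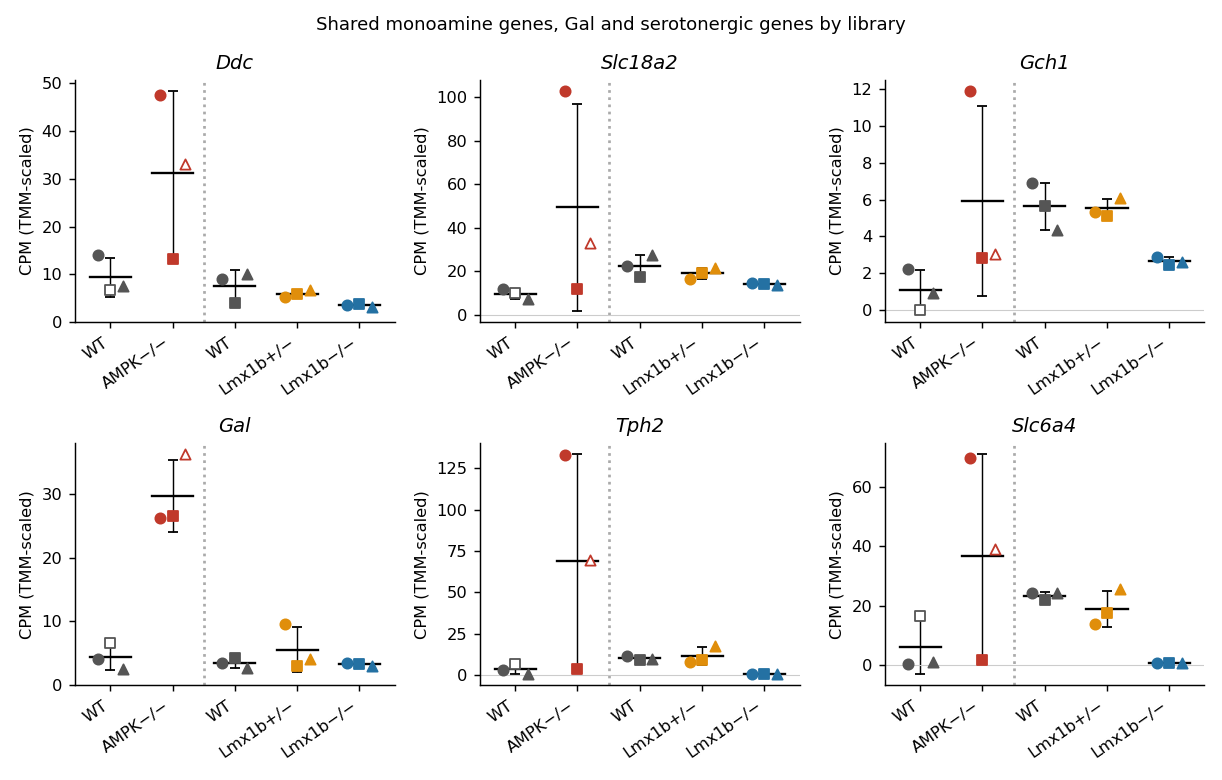
CPM of Ddc, Slc18a2, Gch1, Gal, Tph2 and Slc6a4 in each library, with symbols as in the plot of the 4 noradrenergic genes. AMPKα2-/- 1, at 103 CPM of Slc18a2 and 133 CPM of Tph2, is the highest library of 5 of the 6 genes, and all Lmx1b-/- libraries lie below 1 CPM in Tph2 and Slc6a4.

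In Lmx1b+/- against WT, 16 of 33 tested pathway genes were called by edgeR, 6 higher and 10 lower, where 19.4% of all genes were higher and 17.3% lower, with a median log2 fold change of -0.02 against -0.03 for all genes. The adrenergic receptors were the group with the most calls, 7 of 9 being lower, as were 17.3% of all genes, and 0 higher. Adra1a fell by 0.76 ± 0.16 (adjusted p = 0.00275), Adra2c by 0.76 ± 0.16 (adjusted p = 0.00281) and Adra2a by 0.66 ± 0.15 (adjusted p = 0.00425). Adra2a was read at 39.4, 40.2 and 29.2 CPM in WT, against 27.9, 21.8 and 19.2 CPM in Lmx1b+/-. No Lmx1b+/- value of these 3 receptors reached a WT value, which held, as lower, for 21.9% of all genes, and receptors are found on many cell types besides noradrenergic neurons.

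Of the 8 synthesis genes, 4 rose in Lmx1b+/-, as did 19.4% of all genes, and 1 fell, Cyb561, an electron carrier of secretory vesicles (-0.36 ± 0.11, adjusted p = 0.0224). Pnmt, which turns noradrenaline into adrenaline, was at 0.387, 0.761 and 0.495 CPM in WT, against 1.77, 1.26 and 2.82 CPM in Lmx1b+/-. It had the largest rise (1.84 ± 0.37, adjusted p = 0.00195) at a level of few counts. The cofactor genes Pts (0.48 ± 0.11, adjusted p = 0.00435), Qdpr (0.49 ± 0.11, adjusted p = 0.00413) and Pcbd1 (0.57 ± 0.14, adjusted p = 0.00576) rose by less. Ddc (-0.36 ± 0.26) and Slc18a2 (-0.25 ± 0.16) did not pass. The 10 hindbrain Hox genes, which mark more caudal tissue, summed to 133 to 281 CPM in WT and 234 to 627 CPM in Lmx1b+/-, with 5 of 10 called higher (19.4% of all genes), and the part of that in these values was not tested.

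In Lmx1b-/- against WT, 0 of the 33 pathway genes were called by edgeR, 8 had an unadjusted p under 0.05 and DESeq2 called 3, Gch1, Ddc and Slc18a2. Of all genes, edgeR called 0.0184% and 8.09% had an unadjusted p under 0.05, and DESeq2 called 34 of 21727. Gch1 was read at 6.89, 5.64 and 4.37 CPM in WT, against 2.87, 2.43 and 2.62 CPM in Lmx1b-/- (-1.09 ± 0.19, edgeR adjusted p = 0.138). Ddc was read at 8.996, 3.94 and 9.97 CPM in WT, against 3.52, 3.77 and 3.23 CPM in Lmx1b-/- (-1.13 ± 0.27, adjusted p = 0.491), and Slc18a2 at 22.5, 17.5 and 27.7 CPM and at 14.5, 14.2 and 14.0 CPM (-0.67 ± 0.16, adjusted p = 0.491). For all 3, which are named because DESeq2 called them, every Lmx1b-/- value lay below every WT value, as for 6.09% of all genes. Tph2 and Slc6a4 fell in the same libraries (log2 fold changes -4.75 ± 0.35, adjusted p = 4.80e-05, and -5.18 ± 0.25, adjusted p = 5.88e-07) to at most 0.771 CPM, and the 5 serotonergic genes summed to 48.1 to 55.4 CPM in WT and 14.6 to 16.4 CPM in Lmx1b-/-, whose part in the lower Ddc, Gch1 and Slc18a2 was not tested. Adra2a (-0.41 ± 0.15, adjusted p = 0.544) and Pnmt (1.13 ± 0.38, adjusted p = 0.543) did not pass.

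**Figure D5:**
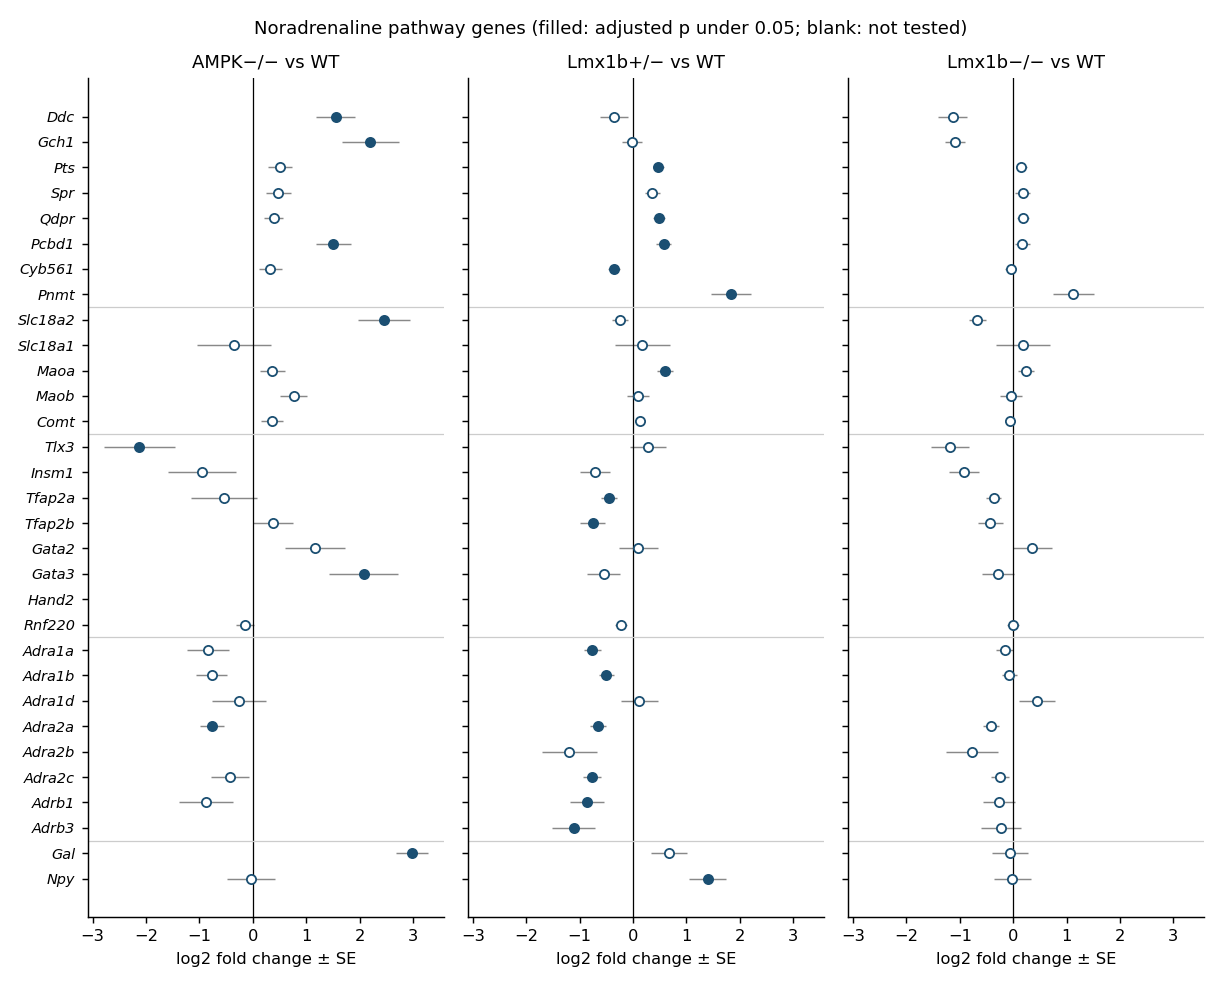
Log2 fold change (x axis, ± SE) of the listed noradrenaline pathway genes (y axis) against WT in the 3 mutant genotypes, with filled points past an adjusted p of 0.05. The filled points number 8, 15 and 0 from left to right among the 31 genes on the axis, and 6 of the 8 adrenergic receptors drawn are filled and below 0 in the middle panel.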

How the data were processed

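RNA-seq of 15 brainstem libraries was used, 6 in the neonatal and 9 in the prenatal table. The authors made the libraries with a directional kit, aligned reads with hisat2 in systemPipeR to GRCm39 (per the submitters' notes) and deposited for each gene its counts and its RPKM. How reads were counted, their strand and their molecular indexes are not given in the sources used here. The deposited RPKM were checked to be the counts divided by gene length and library total. Columns were matched to samples by genotype and number, with 0 columns of other samples; WT 3 of the neonatal table carries an unexplained suffix, and WT 3 of the prenatal table the number 4 of its library name. Of 57180 identifiers, 51884 (90.7%) matched a symbol. No 2 libraries were alike within sampling noise (chi-square per degree of freedom of replicate pairs 1.60 to 249, the highest in pairs with prenatal WT 3).

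The tests on counts were run in edgeR 4.0.16 (R 4.3.3; filterByExpr, TMM, quasi-likelihood F-test), in 1 fit per table with genotype alone in the model. p-values were adjusted by Benjamini-Hochberg over the whole table, and called means an adjusted p under 0.05. Likeness used log2 CPM with a prior count of 2. In simulated data, every gene was given the same fixed spread, and changes were put only into genes of higher counts. There, 4-fold changes were called for 98% to 100% and 2-fold changes for 34% to 54% of changed genes. These shares need not hold for genes of lower counts or wider spread. Alternatives were DESeq2 1.42.0, limma 3.58.1 on log2(RPKM + 1), other scalings and filters, the replicate number as a block, only the 6 libraries compared, and each library or the shallow pair left out. The genes and lists were chosen with earlier results of these data known. Named beside the 4 genes were Ddc, Slc18a2, Pnmt, Adra2a, Lmx1b and Prkaa2, the called pathway genes with the 8 smallest p per comparison, up to 3 genes per list of other cells or regions, and the 3 genes most like each member. Cyb561, Gbx2, Pitx3, Hand1, Hand2, Chga, Chgb and Ret were named after their values were seen. Of the pathway genes, 3 enter the counts but are not reported here one by one. Sequences are from RefSeq, GRCm38.p6. Coordinates of the tables' build are not given.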

Additional observations from a re-analysis of the deposited data

Results flagged for a closer look

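The 2 Lmx1b genotypes differed from each other in 9 of the 33 tested pathway genes by the direct edgeR comparison of Lmx1b-/- with Lmx1b+/-. That is close to the 25.5% of all genes called, so the count is no result about these genes as a group, and it was 3 to 4 when any 1 Lmx1b-/- library was left out and 5 without Lmx1b+/- 3 or with the replicate number as a block. Lower in Lmx1b-/- than in Lmx1b+/- on the log2 scale were Gch1 (-1.06, adjusted p = 0.00137), the neuropeptide Npy (-1.41, adjusted p = 0.00904), Tlx3 (-1.46, adjusted p = 0.00932), Pcbd1 (-0.40, adjusted p = 0.0459) and Pts (-0.32, adjusted p = 0.0461). Higher were, among others, the receptors Adra1a (0.60, adjusted p = 0.0165), Adra2c (0.52, adjusted p = 0.0349) and Adra1b (0.42, adjusted p = 0.0382). Gch1 was at 5.35, 5.12 and 6.09 CPM in Lmx1b+/- and at 2.87, 2.43 and 2.62 CPM in Lmx1b-/-. Npy was at 47.9, 14.5 and 19.1 CPM in Lmx1b+/-, of which the first stood apart, and at 7.71, 9.91 and 12.8 CPM in Lmx1b-/-. None of the 4 noradrenergic genes themselves passed this comparison.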

How the results depend on the processing

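The neonatal values rest on few libraries and the shallow pair limits them, and in Lmx1b-/- against WT the fit sets the calls. In the neonatal comparison, the fit with the replicate number as a block called Th (-1.47, adjusted p = 0.0130) and so 1 of the 4 genes. That fit called 1350 of all 17397 genes. The 9 pathway calls became 0 with DESeq2, which gave 11 of the listed genes an adjusted p, 0 with at least 10 counts in every library (2 tested), 0 with limma and 1 without the shallow libraries. The calls among all genes went from 1555 to 680 with DESeq2, 825 with the count minimum, 0 with limma (2840 at an unadjusted p under 0.05) and 6 without the shallow libraries. In Lmx1b+/- against WT, Th was at -0.94 (adjusted p = 0.0702) with the block, which left 0 of the 4 genes called. Dbh was called by DESeq2 (-0.79), with every counted gene tested (-0.80), with library size alone (-1.01) and by limma (-0.71), and Slc6a2 with every counted gene (-1.01) and library size (-1.21). Calls among the 4 genes were then 2 with DESeq2, 3 with every counted gene, 3 with library size and 2 with limma. Of all genes, DESeq2 called 8157 of 21727 and the fit of every counted gene 8233 of 40964. Of 21729 genes, library size called 7870, limma 7273 and the block 7243. Scaling by library size moved the median of all genes by -0.27 there, by 0.22 in Lmx1b-/- against Lmx1b+/-, by -0.18 in the neonatal comparison and by -0.03 in Lmx1b-/- against WT.

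In Lmx1b-/- against WT, Th was called by DESeq2 (-1.63), with every counted gene (-1.63) and with library size (-1.67), and Dbh (-0.98) and Slc6a2 (-1.28) with every counted gene. That made 1, 3 and 1 of the 4 genes, 3, 6 and 1 pathway genes, and 34, 329 and 19 of all genes in place of 4. Fitting only these 6 libraries called 13. In Lmx1b-/- against Lmx1b+/-, Th was called with every counted gene (-0.67, adjusted p = 0.0403), as 1 of the 4 genes. The block left 5 pathway calls of 9 (among them Adra1a, Gch1, Npy and Tlx3). Of all genes, 5692 of 40964 were called with every counted gene and 4720 of 21729 with the block. Uncalled values turned there, Dbh to 0.060 and Slc6a2 to 0.029 with limma, and Phox2a to 0.15 with library size and 0.079 with limma. The cause of these changes was not tested. Deviations of same-numbered libraries correlated at -0.121 to 0.0477 neonatal and -0.177 to 0.148 prenatal, and not every pair exceeded 0.1, so the libraries were taken to share only a number. Between prenatal WT and Lmx1b-/-, though, the 3 same-numbered pairs were at 0.0758, 0.148 and 0.0974, while every same-numbered pair with Lmx1b+/- was below 0. The differently numbered pairs of WT and Lmx1b-/- were all below 0, which adds no further support, since deviations from a genotype mean sum to 0. The highest values of all were of differently numbered libraries, Lmx1b+/- 1, 2 and 3 with Lmx1b-/- 3, 1 and 2 (0.237, 0.232 and 0.215). The other differently numbered pairs of these genotypes were below 0. Prenatal WT 3 has the number 4 in its library name, so whether the replicate numbers pair any samples is not known.

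With each library left out, the neonatal differences ran from -1.34 to 0.48 for Th, -0.0055 to 0.78 for Dbh and -1.49 to -0.29 for Slc6a2, with 0 to 1 of the members, 3 to 10 pathway genes and 548 to 2958 of all genes called. In Lmx1b+/- against WT they ran from -1.30 to -0.68 for Th, -1.41 to -0.44 for Dbh, -2.18 to -0.62 for Slc6a2 and -0.18 to 0.029 for Phox2a, with 0 to 3 members, 12 to 17 pathway genes and 5911 to 8404 of all genes. In Lmx1b-/- against WT they ran from -1.96 to -1.34, -1.14 to -0.80, -1.69 to -1.0004 and -0.21 to -0.02, with 0 to 1, 0 to 1 and 3 to 11. In Lmx1b-/- against Lmx1b+/- they ran from -0.92 to -0.52, -0.53 to 0.42, -0.69 to 0.89 and -0.13 to 0.013, with 0 to 0, 3 to 12 and 3500 to 6054. Phox2a turned to 0.029 without WT 1 in the first prenatal comparison, and in the last to 0.013 without Lmx1b+/- 2 and 0.0049 without Lmx1b-/- 3. By Spearman's rho, 1 of the 3 genes most like Th and 1 of the 3 most like Phox2a stayed.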
